A study of Mus musculus with 24 samples.

Results

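The ABC transporters of the mouse were described across liver and brain of a leptin receptor model. The family was taken as every gene symbol in the count files of the form Abca to Abcg followed by a number and, where present, a letter, which gave 50 of 55797 gene names. Subfamily A had 16 members, B 10, C 10, D 4, E 1, F 3 and G 6. Of the 50, 43 were above 0 in at least 1 liver library and 46 in at least 1 brain library. After a filter on low counts, 41 members could be tested in liver and 41 in brain, 35 of them in both tissues and 3 in neither. The 7 members listed at 0 in every liver and the 4 listed at 0 in every brain were among those not tested.

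ABC transporters bind and split ATP to move a substrate across a membrane. In the hepatocyte, those of the canalicular membrane carry bile salts, phospholipid, sterols and conjugates into bile, those of the basolateral membrane return conjugates to blood, and others load cholesterol onto lipoproteins or carry fatty acids into peroxisomes. In the brain, members of the family keep drugs out at the blood vessel wall and move lipids in neurons, astrocytes and oligodendrocytes. Members of subfamilies E and F have the ATP-binding parts but no membrane part, and act in translation or in the cytosol.

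RNA was sequenced from liver and brain of male C57/BL6 mice, with a treatment entry of 16 weeks and no age in the labels. The db/db mice carry the db allele of the leptin receptor gene on both chromosomes, and the db/+ mice carry it on 1, so both groups hold the allele. In each tissue and genotype, 2 libraries came from mice given brazzein, a sweet-tasting protein, 2 from mice given sucrose and 2 from mice given water, 24 libraries in all. The labels do not state whether the 2 libraries of a group came from different mice, so p-values measure only the spread between these samples, which may be technical. Below, each liver or brain that is counted or named stands for a library. The series asks how brazzein and sucrose intake bear on metabolic disease in this model.

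Estimated counts summed to between 60384569 and 79385804 per liver library and between 58287665 and 77772849 per brain library. The members took 0.132% to 0.219% of the counts of a liver library and 0.138% to 0.173% of those of a brain library. Levels are in CPM, the estimated count relative to a TMM-adjusted library size. Lepr, the gene altered in the model, read 0.690 to 2.50 CPM in db/db livers and 1.90 to 18.9 CPM in db/+ livers, and its gene-level count is no check of the db allele, which changes its splicing. Hepatocyte markers summed to between 61700 and 92000 CPM in every liver, and neuron markers to between 5240 and 5560 CPM in every brain against 0.0146 to 9.84 CPM in liver.

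Several members were near 0 in 1 replicate and high in the other. Among members with at least 1 replicate pair whose higher count was 100 or more, 9 of 39 in liver (23.1%) had a pair over 10-fold apart, against 13% of all such genes. In brain the share was 3 of 37 (8.11%), against 2.61% of all such genes. In liver these were Abca2, Abca3, Abca8a, Abca8b, Abcb1a, Abcc3, Abcc5, Abcd2 and Abcf2, and in brain Abca6, Abca8a and Abcb4. The db/+ brazzein liver replicate 1 and the db/db brazzein liver replicate 2 each held the low value for 4 members, more than any other liver. Abcf2, an ATP-binding protein of the cytosol, was listed at 0 in both of these libraries and at 11.6 to 27.5 CPM in the other 10. Genotype differences of the 9 members in liver are given with and without those 2 libraries.

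**Figure D1:**
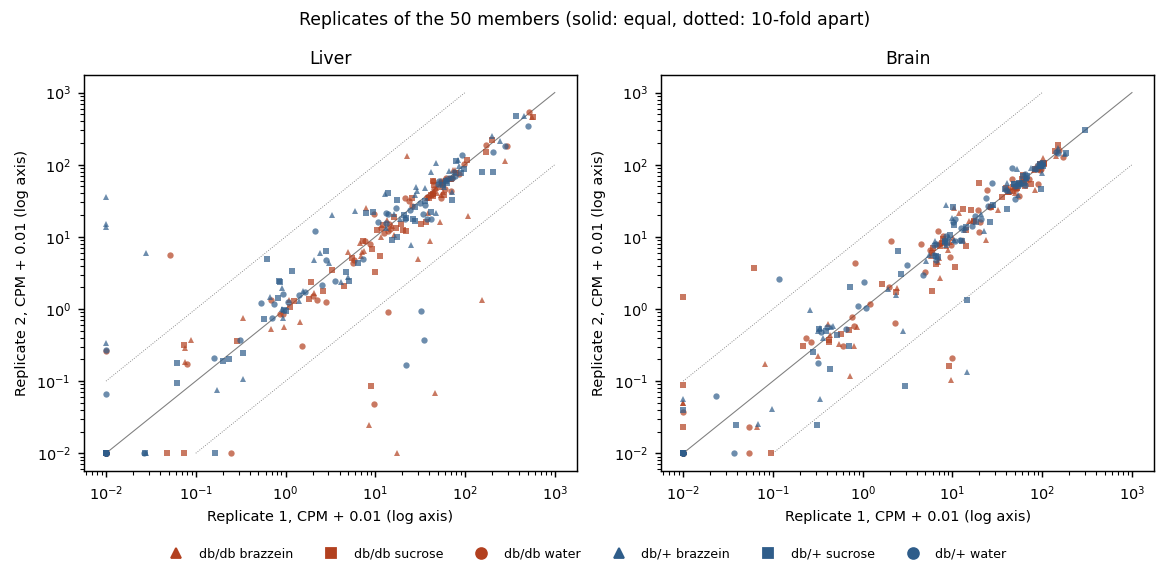
Level of each of the 50 members in replicate 1 (horizontal) and replicate 2 (vertical) of the 6 groups per tissue, in CPM plus 0.01 on log axes, for liver (left) and brain (right). Points beyond the dotted lines are over 10-fold apart, and in liver 9 members with a count of 100 or more in 1 replicate have such points, some of them on the axes.

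Levels per transcript length were compared between tissues as the deposited FPKM values. The liver range lay above the brain range for 14 members, below it for 22, and the ranges overlapped for 14. The share of all genes without overlap in FPKM is not given, so these counts are not read as particular to the family. Abcd3, which carries branched-chain fatty acids and bile acid precursors into peroxisomes, had the highest liver median, with 97.7 FPKM in liver (62.4 to 131) and 17.1 in brain (10.5 to 18.2). Next in liver came Abcc3, with 25.8 FPKM in liver (0.250 to 35.5) and 0.135 in brain (0.0940 to 0.284), Abcc2, with 21.5 FPKM in liver (8.93 to 33.2) and 0.00534 in brain (0 to 0.0218), and Abcb4, with 17.4 FPKM in liver (5.47 to 26.9) and 0.269 in brain (0.00180 to 0.799), all carriers of bile constituents or conjugates. The neighbours in this order from Abcc3 to Abcb4 overlapped one another in their liver ranges.

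Some exporters that feed the bile were at or near 0 in brain. Abcb11, the bile salt export pump, and Abcg8, one part of the sterol exporter, were listed at 0 in every brain, and Abcg5, the other part, reached at most 0.00197 FPKM there. The order differed in brain, where the cytosolic proteins Abcf3, with 12.1 FPKM in liver (10.8 to 14.8) and 22.8 in brain (21.96 to 26.5), and Abcf1, with 15.2 FPKM in liver (12.7 to 18.3) and 21.1 in brain (18.4 to 23.3), led. They were followed by Abcc5, an exporter of cyclic nucleotides, with 0.232 FPKM in liver (0.0892 to 0.901) and 19.8 in brain (18.3 to 24.2), and by Abce1, which splits ribosomes for reuse, with 10.3 FPKM in liver (8.86 to 12.6) and 18.3 in brain (15.8 to 20.01). Abcf3 and Abcf1 overlapped in their brain ranges, as did Abcf1 and Abcc5, and Abcc5 and Abce1. Abcg4, a sterol transporter of neurons and astrocytes, had a brain median of 11.1 FPKM and was listed at 0 in every liver, as was Abcc8, the regulatory sulfonylurea receptor of KATP channels, with a brain median of 2.38 FPKM. In edgeR's quasi-likelihood test on the counts, 41 of 47 members differed between liver and brain at an adjusted p under 0.05 (87.2%, against 84.5% of all genes), 21 higher in liver and 20 lower, where 33.9% of all genes were higher and 50.6% lower.

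**Figure D2:**
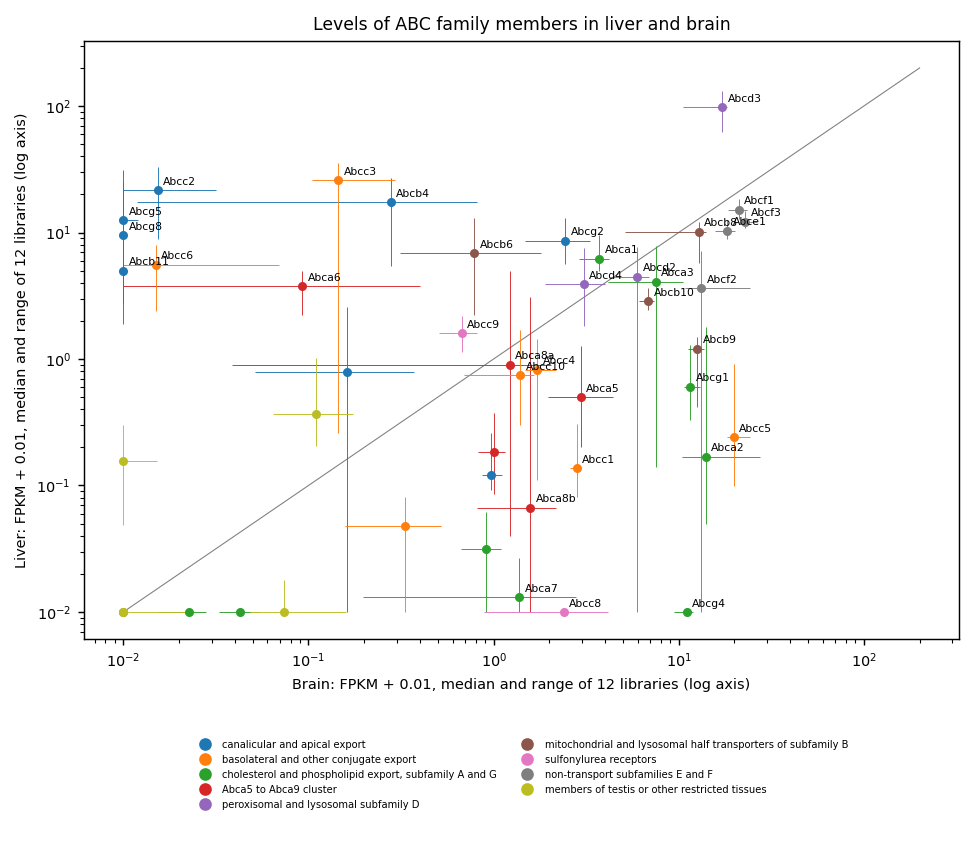
Median level of the family members reported in 12 liver libraries (vertical) and 12 brain libraries (horizontal), in FPKM plus 0.01 on log axes, with bars from the lowest to the highest library and colours by role. Abcd3 is the highest member in liver at a median of 97.7 FPKM, bile and sterol exporters sit at the left edge, and Abcg4 sits on the lower edge with a brain median of 11.1 FPKM.

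Liver genotype differences were tested over the 3 drinks together. Of the 41 members tested, 6 passed an adjusted p under 0.05 in edgeR's quasi-likelihood test (14.6%, against 15.2% of all genes), so the family was called about as often as any gene. Abcc4, Abca5, Abca3, Abcb1a and Abca2 rose in db/db livers and Abcf3 fell, where 7.91% of all genes were called higher and 7.27% lower. An unadjusted p under 0.05 was reached by 12 of the 41 members (against 31.6% of all genes), and DESeq2, an alternative count test, called 10 of the 42 members to which it gave an adjusted p (against 21% of such genes). The median log2 fold change of the 41 members was 0.11, with 24 above 0, and that of all genes was -0.03, with 47.8% above 0. For 4 members the 6 db/db livers and the 6 db/+ livers did not overlap (Abcc4, Abca5, Abca3 and Abcf3), and the same held for 8.43% of all genes. In such bulk samples, fewer cells of a type and less RNA per cell cannot be told apart.

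Some markers of other liver cells were called between genotypes in edgeR's test, where 7.91% of all genes were called higher and 7.27% lower. The Kupffer cell and macrophage markers summed to 119 to 251 CPM in db/db livers and 64.9 to 268 CPM in db/+ livers, with 2 of 7 called higher. Of the stellate cell and pericyte markers, 2 of 6 were called higher and 1 lower, with sums of 71.8 to 99.7 CPM in db/db livers and 53.3 to 88.9 CPM in db/+ livers. The erythroid markers summed to 732 to 2280 CPM in db/db livers and 423 to 763 CPM in db/+ livers, with 2 of 4 called higher. In each of these lists the sums of the genotypes overlapped. None of the hepatocyte, cholangiocyte and endothelial markers was called by edgeR, and no marker list was wholly at 0. The part of these cells in the members' differences was not tested.

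**Figure D3:**
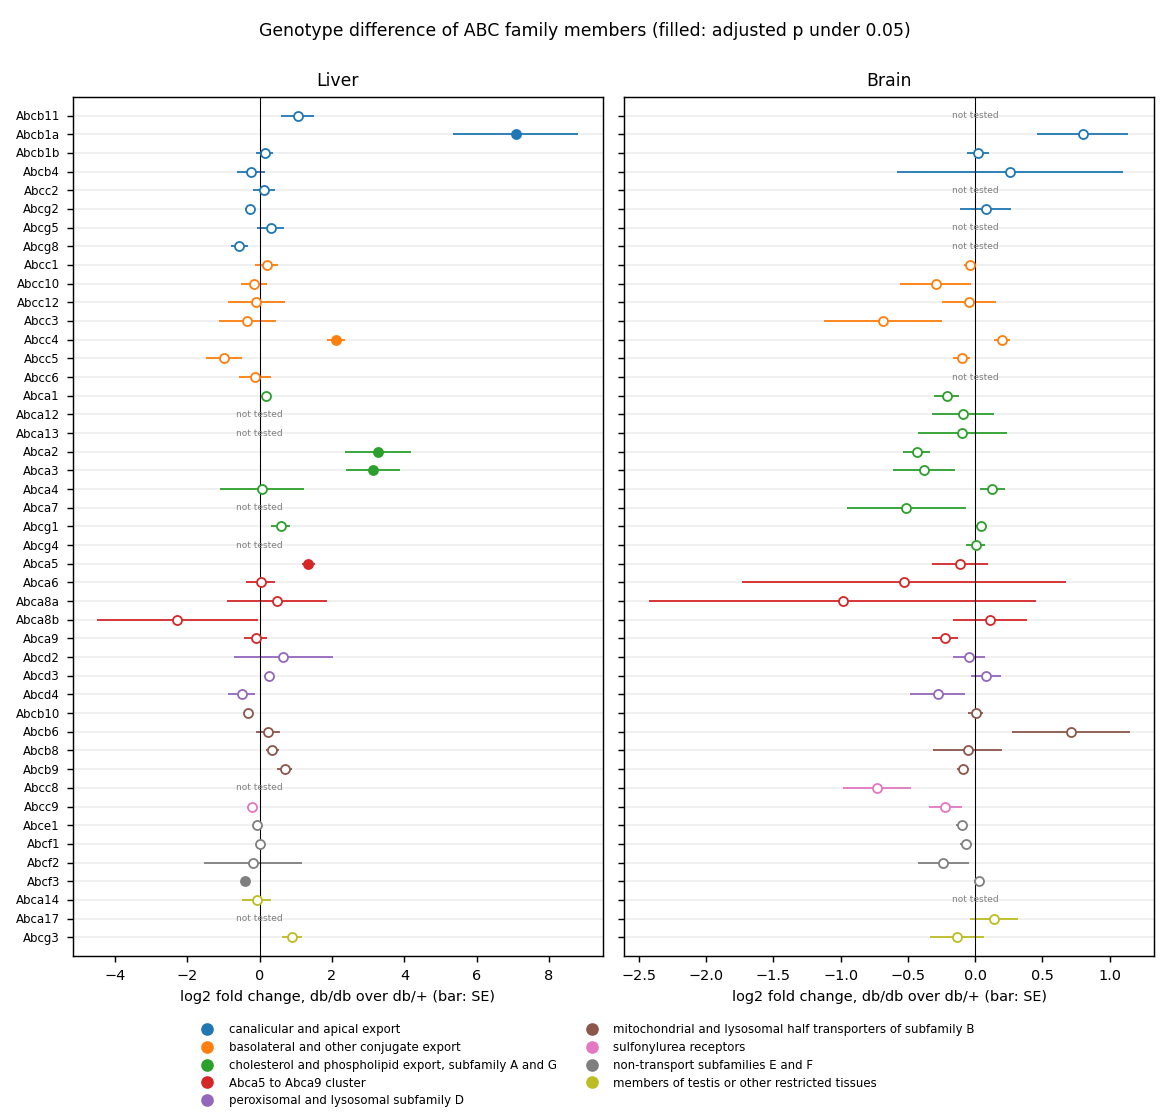
Log2 fold change of db/db over db/+ for the tested members reported in liver (left) and brain (right), averaged over drinks, with the standard error as bars, colours by role and filled points for an adjusted p under 0.05. The 6 filled points are all in liver, and the panels have different scales, with brain values between -0.99 and 0.80.

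Among the conjugate exporters, Abcc4 was the member with the smallest p in liver. Abcc4 sends bile acid and steroid conjugates and cyclic nucleotides out of the cell across the basolateral membrane. In db/db livers it read 7.57 and 6.36 CPM on brazzein, 9.26 and 6.69 on sucrose and 7.75 and 8.80 on water. In db/+ livers it read 2.08 and 4.80 CPM on brazzein, 0.813 and 1.39 on sucrose and 1.42 and 1.57 on water. All 6 db/db livers lay above all 6 db/+ livers, and the highest db/+ liver was a brazzein library. Abcc4 averaged 7.74 ± 1.14 CPM in db/db livers and 2.01 ± 1.42 CPM in db/+ livers (SD, n = 6 each). The log2 fold change was 2.11 (SE 0.26, edgeR quasi-likelihood adjusted p = 0.0027). The call held without any 1 library and in all 8 other settings tried, with log2 fold changes of 1.84 to 2.16 in those settings.

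The bases before the start of Abcc4, Abca5 and Abcf3 are shown, since these 3 members did not overlap between genotypes and had no replicate pair over 10-fold apart (RefSeq sequences, GRCm38.p6, 250 bases up to the start, 5′ to 3′ on the gene's strand). Abcc4 has its first start after chr14:118706220-118706469 (minus strand), Abca5 after chr11:110337717-110337966 (minus strand) and Abcf3 after chr16:20548353-20548602 (plus strand). Capitals mark matches, on either strand, to TGACNNNGC (the core of the antioxidant response element), CACGTG (an E-box) and GGGCGG (a GC box).
Abcc4: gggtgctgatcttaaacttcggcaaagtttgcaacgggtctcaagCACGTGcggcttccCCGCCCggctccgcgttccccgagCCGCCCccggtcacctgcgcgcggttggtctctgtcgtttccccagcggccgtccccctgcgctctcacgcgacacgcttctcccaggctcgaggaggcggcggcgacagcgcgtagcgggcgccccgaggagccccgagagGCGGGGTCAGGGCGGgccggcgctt
Abca5: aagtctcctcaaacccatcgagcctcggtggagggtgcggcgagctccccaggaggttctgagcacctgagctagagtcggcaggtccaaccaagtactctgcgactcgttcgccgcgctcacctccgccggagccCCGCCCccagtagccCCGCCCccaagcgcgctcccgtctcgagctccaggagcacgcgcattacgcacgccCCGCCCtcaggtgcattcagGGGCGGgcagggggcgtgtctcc
Abcf3: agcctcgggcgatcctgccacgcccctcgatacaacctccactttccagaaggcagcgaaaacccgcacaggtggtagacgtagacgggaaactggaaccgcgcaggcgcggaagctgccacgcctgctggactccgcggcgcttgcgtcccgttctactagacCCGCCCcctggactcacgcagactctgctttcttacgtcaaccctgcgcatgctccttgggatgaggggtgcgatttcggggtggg
The window before the first Abcc4 start held the antioxidant core at 25 bases, an E-box at 205 and GC boxes at 191, 167 and 16. These matches did not overlap. Before the second Abcc4 start, after chr14:118676932-118677181 (minus strand, not shown), the only match was the antioxidant core at 23 bases. The Abca5 promoter held GC boxes at 114, 99, 43 and 23 bases, and that of Abcf3 held 1 at 86. The fourth motif searched, CCAAT, had no match in the 3 windows shown. Among 32851 promoters of the same length, 10.2% held TGACNNNGC, 6.02% CACGTG, 32.7% GGGCGG and 33.8% CCAAT. Among the 45 promoters of the 38 members in that table, 4 held TGACNNNGC, 5 CACGTG, 20 GGGCGG and 13 CCAAT. A match describes the letters only.

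The other conjugate exporters showed no called change in liver. Abcc3, which shares substrates and the basolateral membrane with Abcc4, read 156 and 1.30 CPM on brazzein, 174 and 149 on sucrose and 173 and 189 on water in db/db livers. The db/+ livers held 200.5 and 252 CPM on brazzein, 153 and 80.04 on sucrose and 208 and 149 on water. The groups overlapped, and the db/db brazzein replicate 2 was low by itself. The log2 fold change of Abcc3 was -0.34 (SE 0.78, edgeR quasi-likelihood adjusted p = 0.815), and without that library it was 0.00. Without both brazzein livers that held most low values it was -0.05 (edgeR adjusted p = 0.925). Without the other db/db brazzein library, replicate 1, it was -2.30 (adjusted p = 0.00216 in the same test). Abcc1, Abcc5, Abcc6, Abcc10 and Abcc12 had log2 fold changes between -0.98 and 0.19, none called. That of Abcc5 was -0.98 (edgeR adjusted p = 0.220), and -1.23 without those 2 brazzein livers (adjusted p = 0.260).

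**Figure D4:**
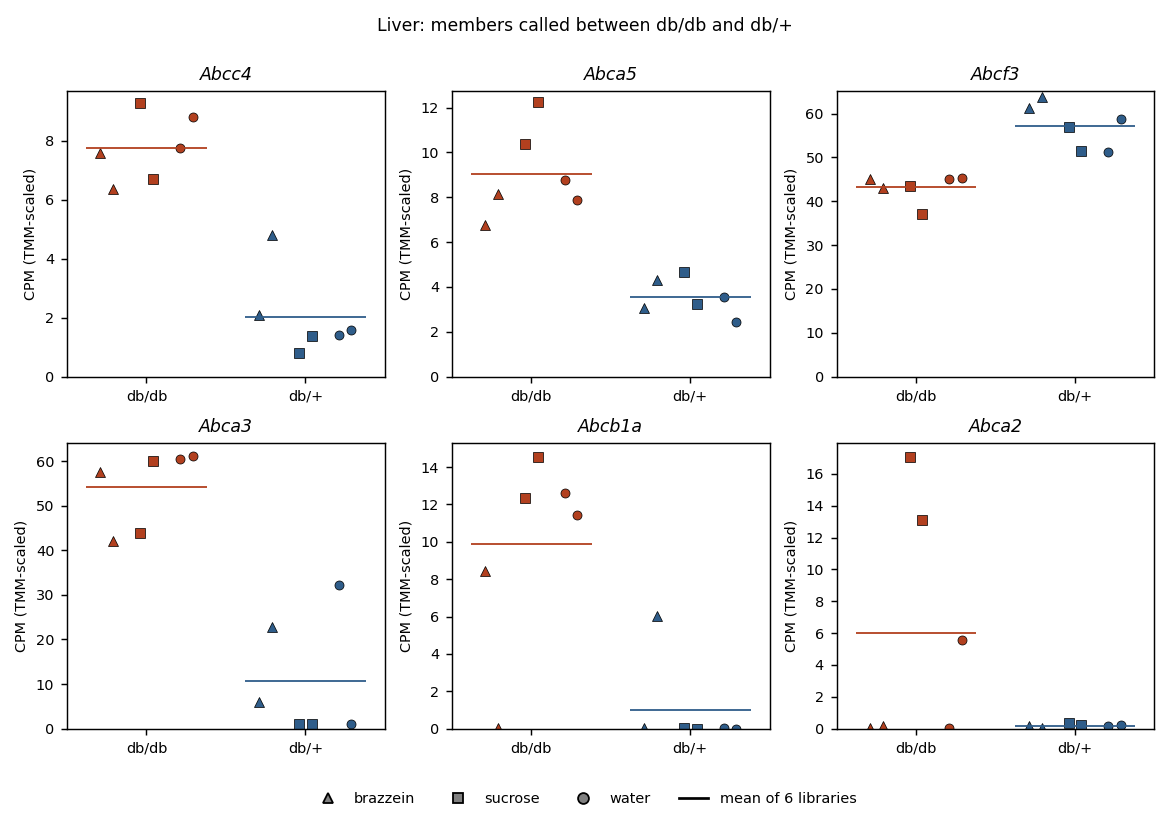
Level of the 6 members called between genotypes in liver, in CPM, for 6 db/db livers (left of each panel) and 6 db/+ livers (right), with shapes by drink and a line at the mean of 6 libraries. Abcc4, Abca5, Abca3 and Abcf3 do not overlap between genotypes, whereas Abcb1a and Abca2 each have db/db livers near 0.

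Lipid transporters of subfamily A gave 3 of the calls. Abca5, a lysosomal lipid transporter, read 6.78 and 8.16 CPM on brazzein, 10.4 and 12.3 on sucrose and 8.79 and 7.87 on water in db/db livers. Against these, the db/+ livers read 3.05 and 4.32 CPM on brazzein, 4.67 and 3.23 on sucrose and 3.54 and 2.43 on water. The lowest db/db liver lay above the highest db/+ liver. Abca5 averaged 9.04 ± 1.97 CPM in db/db livers and 3.54 ± 0.83 CPM in db/+ livers (SD, n = 6 each). The log2 fold change was 1.34 (SE 0.18, edgeR quasi-likelihood adjusted p = 0.0040), and the call held without any 1 library and in all 8 other settings.

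Abca3 is best known for loading surfactant lipids into lamellar bodies of the lung. In db/db livers Abca3 read 57.5 and 41.99 CPM on brazzein, 43.9 and 60.01 on sucrose and 60.5 and 61.1 on water. Levels in db/+ livers were 6.01 and 22.7 CPM on brazzein, 0.951 and 0.971 on sucrose and 32.2 and 0.930 on water. The db/db livers lay close together, whereas the db/+ livers ran from under 1 CPM to 32.2 CPM and stayed below all db/db livers. This gave a log2 fold change of 3.14 (SE 0.74, edgeR quasi-likelihood adjusted p = 0.0273). The call held without db/+ water replicate 1 or 2, db/+ brazzein replicate 2 or db/db brazzein replicate 2, and was lost without any 1 of the other 8 livers (adjusted p 0.0522 to 0.0814 in the same test). Without the 2 brazzein livers that held most low values, the log2 fold change was 3.01 (edgeR adjusted p = 0.0981).

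Abca2, a lysosomal lipid transporter abundant in oligodendrocytes, was low in all db/+ livers and in 3 of the db/db livers. It read 0.0658 and 0.176 CPM on brazzein, 17.1 and 13.1 on sucrose and 0.0420 and 5.56 on water in db/db livers. In db/+ livers it read 0.161 and 0.0652 CPM on brazzein, 0.329 and 0.236 on sucrose and 0.152 and 0.200 on water. Both db/db sucrose livers and 1 db/db water liver stood above the rest, and the other 3 db/db livers overlapped the db/+ livers. The log2 fold change was 3.27 (SE 0.91, edgeR quasi-likelihood adjusted p = 0.0478). The call was lost without any 1 library other than db/db water replicate 1 (adjusted p 0.0646 to 0.123). Without db/db water replicate 2 the value was 1.28 (edgeR adjusted p = 0.0982), and without the 2 brazzein livers above it was 3.26 (adjusted p = 0.160). On log2(FPKM + 0.1) with limma it was 1.02 (adjusted p = 0.141). The adjusted p was also above the threshold with no filter on low counts (0.0518, edgeR) and with limma on log2 CPM (0.152).

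Abca5 lies beside Abca6, Abca9, Abca8a and Abca8b in 1 run of neighbouring genes in the RefSeq order. Abca8a read 7.02 and 6.21 CPM on brazzein, 8.86 and 0.0747 on sucrose and 9.63 and 0.0377 on water in db/db livers. The db/+ livers held 12.9 and 39.1 CPM on brazzein, 0.190 and 0.180 on sucrose and 21.7 and 0.157 on water. Both genotypes ran from under 1 CPM upward and overlapped. The log2 fold change of Abca8a was 0.48 (SE 1.38, edgeR quasi-likelihood adjusted p = 0.860). Abca6, Abca9 and Abca8b had values of 0.03, -0.11 and -2.28, none called. Without the 2 brazzein livers above, the values were 0.32 for Abca8a (edgeR adjusted p = 0.958) and -2.60 for Abca8b (adjusted p = 0.508). Abca8a and Abca8b are near copies, and the division of reads between them was not tested.

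Of the canalicular exporters, 1 of 8 was called. Abcb1a, a P-glycoprotein that exports drugs and other foreign compounds, read 8.45 and 0.0146 CPM on brazzein, 12.3 and 14.6 on sucrose and 12.6 and 11.4 on water in db/db livers. Against these, the db/+ livers read 0.0179 and 6.002 CPM on brazzein, 0.0173 and 0 on sucrose and 0.0169 and 0 on water. In 5 db/db livers it was above every db/+ liver, and the sixth, brazzein replicate 2, was near 0. Of the db/+ livers, 1 brazzein library held 6.0 CPM and the other 5 were at 0.0179 CPM or less. The log2 fold change was 7.07 (SE 1.74, edgeR quasi-likelihood adjusted p = 0.0315).

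The size of the Abcb1a difference rests on the libraries near 0. It was 3.04 with limma on log2(FPKM + 0.1) (adjusted p = 0.0410) and 7.09 without the 2 brazzein livers that held most low values (edgeR adjusted p = 0.00342). Without db/db brazzein replicate 1 it was 4.41 (edgeR adjusted p = 0.235). Over the fits that left out 1 liver, the call held without db/+ brazzein replicate 1 or 2 or db/db brazzein replicate 2, and without any 1 of the other 8 livers the adjusted p was 0.0598 to 0.108. Abcb1b, the neighbouring P-glycoprotein gene, had a log2 fold change of 0.13 (SE 0.23, edgeR adjusted p = 0.735), and reads of the 2 copies may be shared between them.

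Bile salt and phospholipid export genes varied widely between livers. Abcb11 read 22.8 and 134 CPM on brazzein, 36.8 and 16.03 on sucrose and 61.9 and 66.3 on water in db/db livers. Levels in db/+ livers were 28.2 and 49.6 CPM on brazzein, 14.01 and 40.1 on sucrose and 13.2 and 15.4 on water. The groups overlapped, with a log2 fold change of 1.05 (SE 0.47, edgeR quasi-likelihood adjusted p = 0.170). Abcb4, which brings phosphatidylcholine to the bile side of the membrane, read 108 and 19.4 CPM on brazzein, 79.4 and 76.6 on sucrose and 85.05 and 75.2 on water in db/db livers. In db/+ livers it read 41.5 and 79.2 CPM on brazzein, 80.1 and 114 on sucrose and 92.7 and 134 on water. Its groups overlapped, with a log2 fold change of -0.25 (SE 0.38, edgeR adjusted p = 0.712), and db/db brazzein replicate 2, the liver with the highest Abcb11, had the lowest Abcb4. Abcc2, the canalicular exporter of bilirubin and other conjugates, read 279.6 and 111 CPM on brazzein, 198 and 218 on sucrose and 294 and 180.0 on water in db/db livers. The db/+ livers held 247 and 216 CPM on brazzein, 204 and 78.3 on sucrose and 281 and 183 on water. Abcc2 overlapped between genotypes as well, with a log2 fold change of 0.11 (SE 0.31, edgeR adjusted p = 0.848).

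Abcg5 and Abcg8 are neighbouring genes whose products form 1 sterol exporter together. Abcg5 read 41.2 and 8.86 CPM on brazzein, 56.5 and 53.2 on sucrose and 69.04 and 43.1 on water in db/db livers. Against these, the db/+ livers read 47.9 and 107 CPM on brazzein, 26.3 and 17.9 on sucrose and 24.4 and 23.3 on water. Abcg8 read 54.5 and 38.001 CPM on brazzein, 58.5 and 38.1 on sucrose and 60.5 and 46.7 on water in db/db livers. Levels in db/+ livers were 83.4 and 118 CPM on brazzein, 71.1 and 31.9 on sucrose and 76.6 and 70.4 on water. Both genes were highest in the same liver, db/+ brazzein replicate 2, and both overlapped between genotypes. Abcg5 had a log2 fold change of 0.31 (SE 0.38, edgeR adjusted p = 0.627) and Abcg8 of -0.56 (SE 0.23, edgeR adjusted p = 0.140). Abcg2, an exporter of urate and foreign compounds, read 77.7 and 84.4 CPM on brazzein, 45.7 and 52.9 on sucrose and 43.9 and 58.8 on water in db/db livers. For Abcg2 the db/+ livers held 72.2 and 41.8 CPM on brazzein, 96.3 and 85.9 on sucrose and 71.6 and 65.9 on water, with overlap and a log2 fold change of -0.27 (SE 0.15, edgeR adjusted p = 0.263).

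**Figure D5:**
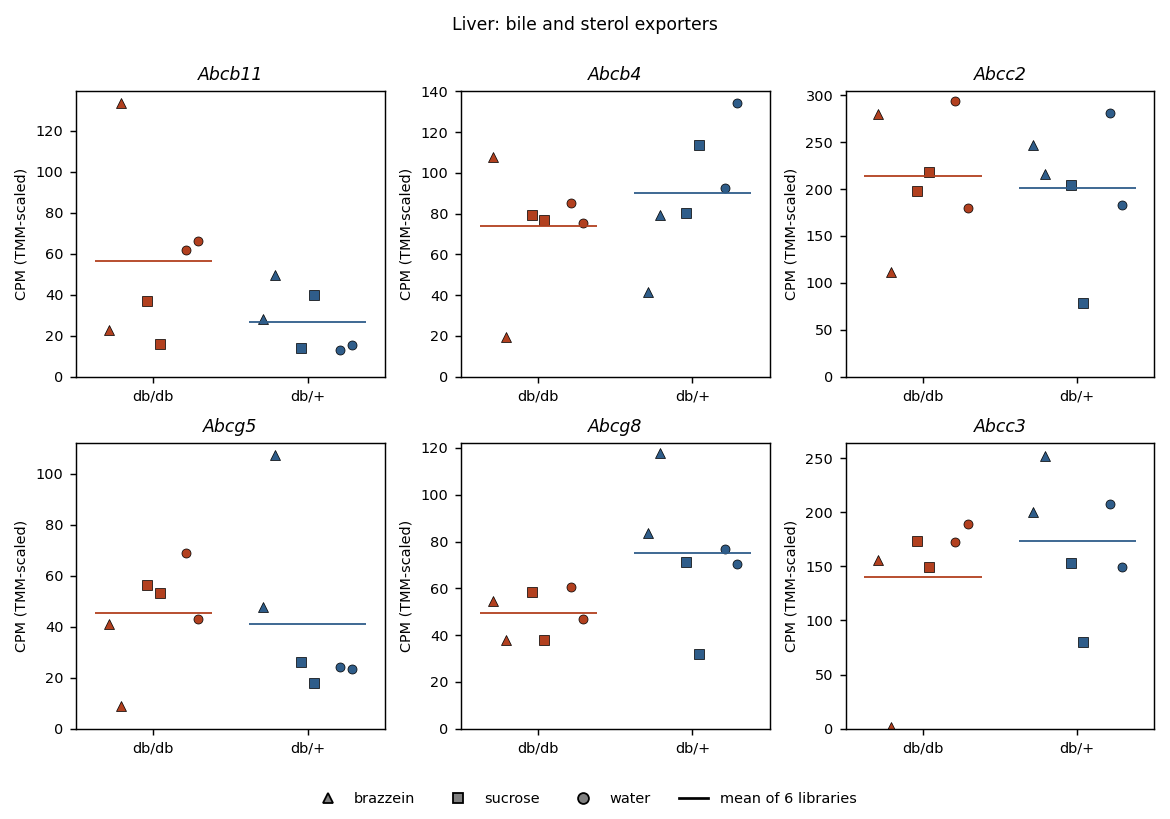
Level of 6 bile and sterol exporters in CPM for 6 db/db livers (left of each panel) and 6 db/+ livers (right), with shapes by drink and a line at the mean of 6 libraries. The genotypes overlap in every panel, and single brazzein libraries lie at the extremes, such as db/db replicate 2 at 1.30 CPM for Abcc3 and db/+ replicate 2 at 107 CPM for Abcg5.

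The cholesterol exporters Abca1 and Abcg1 were not called. Abca1, which passes cholesterol and phospholipid to apolipoprotein A-I, read 74.3 and 84.8 CPM on brazzein, 104 and 115 on sucrose and 97.4 and 101 on water in db/db livers. In db/+ livers it read 86.3 and 97.3 CPM on brazzein, 90.1 and 77.7 on sucrose and 75.96 and 78.4 on water. It overlapped and had a log2 fold change of 0.18 (SE 0.08, edgeR quasi-likelihood adjusted p = 0.156). Abcg1, which passes cholesterol to high-density lipoprotein and is high in macrophages, read 4.99 and 6.17 CPM on brazzein, 7.24 and 8.77 on sucrose and 5.69 and 4.34 on water in db/db livers. The db/+ livers held 4.91 and 2.77 CPM on brazzein, 2.84 and 6.30 on sucrose and 2.80 and 4.82 on water. Abcg1 overlapped likewise, with a log2 fold change of 0.58 (SE 0.27, edgeR adjusted p = 0.185).

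No peroxisomal or lysosomal member of subfamily D was called. Abcd2, a carrier of very long-chain fatty acids, read 45.8 and 0.0586 CPM on brazzein, 52.8 and 49.5 on sucrose and 54.7 and 34.1 on water in db/db livers. Against these, the db/+ livers read 0 and 35.8 CPM on brazzein, 27.8 and 26.2 on sucrose and 37.4 and 17.8 on water. It was near or at 0 in 1 brazzein library of each genotype, and its log2 fold change of 0.66 (SE 1.36, edgeR adjusted p = 0.792) turned to -2.19 without db/db brazzein replicate 1. Without both brazzein livers that held the low values it was 0.67 (SE 0.25, edgeR adjusted p = 0.15). Abcd3 had 0.25 and Abcd4, which moves cobalamin out of lysosomes, had -0.50, neither called.

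The subfamily B members of mitochondria and lysosomes gave no call among 5 tested by edgeR, with Abcb9 and Abcb10 at an unadjusted p under 0.05. Abcb9, a lysosomal peptide transporter, was the nearest member outside the threshold, at 4.77 to 6.85 CPM in db/db livers and 2.15 to 6.43 CPM in db/+ livers (log2 fold change 0.69, SE 0.20, edgeR quasi-likelihood adjusted p = 0.0538). It passed without the 2 brazzein livers that held most low values (0.91, edgeR adjusted p = 0.0384). Abcb10, which serves heme synthesis in mitochondria, read 14.1 to 19.3 CPM in db/db livers and 17.7 to 21.9 CPM in db/+ livers (-0.32, SE 0.12, edgeR adjusted p = 0.0979). Abcb6 and Abcb8 had log2 fold changes of 0.22 and 0.35. Abcc9, the sulfonylurea receptor of vessel-wall cells, read 13.7 and 16.9 CPM on brazzein, 16.2 and 19.1 on sucrose and 14.6 and 12.8 on water in db/db livers. For Abcc9 the db/+ livers held 13.2 and 13.1 CPM on brazzein, 20.9 and 20.2 on sucrose and 17.2 and 25.4 on water, with overlap and a log2 fold change of -0.21 (SE 0.13, edgeR adjusted p = 0.313).

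Abcf3 was the 1 called member that fell in db/db livers. In db/db livers Abcf3 read 45.03 and 43.1 CPM on brazzein, 43.5 and 37.1 on sucrose and 45.1 and 45.3 on water. Levels in db/+ livers were 61.3 and 63.8 CPM on brazzein, 56.97 and 51.5 on sucrose and 51.3 and 58.7 on water. Every db/db liver lay below every db/+ liver. Abcf3 averaged 43.2 ± 3.13 CPM in db/db livers and 57.3 ± 5.10 CPM in db/+ livers (SD, n = 6 each), a log2 fold change of -0.41 (SE 0.08, edgeR quasi-likelihood adjusted p = 0.0149). The call was lost without db/db sucrose replicate 2, db/db water replicate 1 or db/db water replicate 2 (edgeR adjusted p 0.0518 to 0.0607) without the 2 brazzein livers that held most low values (0.0533) and with no filter on low counts (0.0519). Abce1, Abcf1 and Abcf2 had log2 fold changes of -0.06, 0.01 and -0.18, none called. Without those 2 livers that of Abcf2 was -0.17 (edgeR adjusted p = 0.706).

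Within single drinks, Abcc4 was the one member called between genotypes. On water, 1 of 41 members passed in edgeR's test (against 1.51% of all genes), with a log2 fold change of Abcc4 of 2.47 (SE 0.45, edgeR adjusted p = 0.0438). An unadjusted p under 0.05 was reached by 9 members (19.6% of all genes), and DESeq2 called 5 of 41 (10% of genes with an adjusted p). On sucrose, 1 of 41 passed (against 0.868% of all genes), with 2.85 (SE 0.46, edgeR adjusted p = 0.0381). There 9 members had an unadjusted p under 0.05 (16.3% of all genes), and DESeq2 called 5 of 41 (7.47%). On brazzein, 0 of 41 passed in edgeR (against 1.58% of all genes), while 7 had an unadjusted p under 0.05 (17.5% of all genes) and DESeq2 called 3 of 41 (9.21%). On brazzein the Abcc4 value was 1.02 (SE 0.43, edgeR adjusted p = 0.274). The difference of the genotype effect between drinks did not pass for Abcc4 (interaction, edgeR adjusted p = 0.663). Each single-drink call compares 2 libraries with 2. The call on water and the call on sucrose each held in 2 of the 12 fits that left out 1 liver (edgeR adjusted p up to 0.213 on water and 0.193 on sucrose).

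Drink differences were tested with genotypes pooled, and percentages beside the members' counts give the share of all genes reaching the same threshold (for DESeq2, of genes given an adjusted p). For brazzein against water, 0 of 41 members passed in edgeR (against 0.0723% of all genes), with 1 at an unadjusted p under 0.05 (9.43% of all genes) and 1 of 41 called by DESeq2 (2.45%). For sucrose against water, 0 of 41 passed in edgeR (against 0.0155% of all genes), with 2 at an unadjusted p under 0.05 (5.88%) and 0 called by DESeq2 (0.89%). For brazzein against sucrose, 0 of 41 passed in edgeR (against 0.145% of all genes), with 6 at an unadjusted p under 0.05 (14.7%) and 2 of 41 called by DESeq2 (5.82%). Abca2 had the smallest p in that comparison, with a log2 fold change of -4.13 (SE 1.16, edgeR adjusted p = 0.176). Its highest livers were the db/db sucrose pair, at 17.1 and 13.1 CPM.

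Within db/db mice, brazzein against sucrose called 0 of 41 members in edgeR (against 0.16% of all genes), with 6 at an unadjusted p under 0.05 (14.7%) and 2 of 41 called by DESeq2 (6.67%). Abca1 read 74.3 and 84.8 CPM in db/db brazzein livers and 104 and 115 CPM in db/db sucrose livers, a log2 fold change of -0.46 (SE 0.13, edgeR adjusted p = 0.183). The 2 drinks did not overlap for Abca1, and 2 libraries a side were compared. Sucrose against water in db/db called 0 of 41 in edgeR (against 0.00517% of all genes), with 0 at an unadjusted p under 0.05 (4.27%) and 0 called by DESeq2 (0.41%). The interaction of genotype with drink called 0 of 41 in edgeR (against 0.062% of all genes), with 6 at an unadjusted p under 0.05 (7.29%) and 0 called by DESeq2 (1.76%). Abcg2 had the smallest interaction p (edgeR adjusted p = 0.626).

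In brain, no member was called between genotypes. Of 41 members, 0 passed in edgeR's test (against 0.00846% of all genes), while 7 had an unadjusted p under 0.05 (13.8% of all genes) and DESeq2 called 2 of the 40 members with an adjusted p (3.76% of such genes). The median log2 fold change of the members was -0.09, with 15 of 41 above 0, and that of all genes was 0.00. No member separated the 6 db/db brains from the 6 db/+ brains, which 1.86% of all genes did. Abcc4, called in liver, read 12.5 to 16.8 CPM in db/db brains and 12.4 to 14.2 CPM in db/+ brains, with a log2 fold change of 0.20 (SE 0.06, edgeR adjusted p = 0.223).

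Abca2 had the smallest p of the members in brain. It read 103 and 123 CPM on brazzein, 150.4 and 187 on sucrose and 169 and 128 on water in db/db brains. In db/+ brains it read 180.5 and 140.3 CPM on brazzein, 297 and 304 on sucrose and 141 and 149 on water. The db/+ sucrose brains stood above all others and the db/db brazzein brains below all others, and the genotypes overlapped between 140 and 187 CPM. Between genotypes the log2 fold change was -0.43 (SE 0.10, edgeR adjusted p = 0.160). Oligodendrocyte markers summed to 5560 to 6520 CPM in db/db brains and 6130 to 7090 CPM in db/+ brains, with 0 of 5 called by edgeR, and their part in the Abca2 values was not tested.

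The sulfonylurea receptor Abcc8 read 12.99 and 9.16 CPM on brazzein, 13.3 and 24.1 on sucrose and 4.46 and 7.93 on water in db/db brains. In db/+ brains it read 9.96 and 18.5 CPM on brazzein, 26.2 and 16.2 on sucrose and 20.8 and 17.9 on water. The groups overlapped, with a log2 fold change of -0.73 (SE 0.25, edgeR adjusted p = 0.268). Abca8a differed widely between replicates in brain, at 9.68 and 0.0935 CPM on brazzein, 9.18 and 0.154 on sucrose and 9.89 and 0.200 on water in db/db brains. In db/+ brains it read 14.6 and 0.123 CPM on brazzein, 14.4 and 1.32 on sucrose and 16.5 and 14.05 on water. Replicate 2 was low in 5 of the 6 brain groups. The genotypes overlapped over all libraries, with a log2 fold change of -0.99 (SE 1.44, edgeR adjusted p = 0.822). Among the other panel members, Abca1 read 39.996 to 63.7 CPM in db/db brains and 54.4 to 62.6 CPM in db/+ brains, and Abcg1 read 94.5 to 105 CPM in db/db brains and 89.7 to 106 CPM in db/+ brains. Abcd2 read 39.3 to 49.9 CPM in db/db brains and 33.9 to 56.2 CPM in db/+ brains, and Abcg2 read 11.8 to 23.8 CPM in db/db brains and 10.8 to 20.6 CPM in db/+ brains. Abcb1a, a known drug exporter of brain vessels, read 0.548 to 2.32 CPM in db/db brains and 0.249 to 1.09 CPM in db/+ brains, and Abcc9 read 5.03 to 7.90 CPM in db/db brains and 6.46 to 8.78 CPM in db/+ brains. All overlapped between genotypes.

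Drink comparisons in brain gave 0 calls of 41 members each in edgeR's test. For brazzein against water 0% of all genes were called, with 1 member at an unadjusted p under 0.05 (4.61% of all genes) and 0 called by DESeq2 (0.223%). For sucrose against water 0% of all genes were called, with 4 members at an unadjusted p under 0.05 (5.61%) and 1 of 42 called by DESeq2 (0.233%). For brazzein against sucrose 0% of all genes were called, with 1 member at an unadjusted p under 0.05 (4.02%) and 1 of 42 called by DESeq2 (0.239%). Abca2 had the smallest member p in the last of these, with a log2 fold change of -0.74 (SE 0.12, edgeR adjusted p = 0.604). Within db/db brains, brazzein against sucrose called 0 of 41 in edgeR (against 0.00846% of all genes), with 4 at an unadjusted p under 0.05 (5.36%) and 0 called by DESeq2 (0.491%).

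The genotype difference in liver was then set against that in brain, in 1 fit of all 24 libraries. Of 47 members, 7 passed in edgeR's test (14.9%, against 9.75% of all genes), 6 with a higher value in liver and 1 with a lower value (5.41% and 4.34% of all genes). An unadjusted p under 0.05 was reached by 12 members (22.2% of all genes), and DESeq2 called 12 of the 47 with an adjusted p (18.3%). Abcc4 differed by 1.92 on the log2 scale (SE 0.26, edgeR adjusted p = 0.000411), Abca5 by 1.46 (adjusted p = 0.00500) and Abcf3 by -0.43 (adjusted p = 0.00808). Abca3, Abca2, Abcb1a and Abcb9 passed as well, and the first 3 of these had liver libraries under 1 CPM. The genotype differences themselves were 2.11 in liver and 0.20 in brain for Abcc4, 1.34 in liver and -0.11 in brain for Abca5, and -0.41 in liver and 0.03 in brain for Abcf3.

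Other genes of the same pathways were counted in the liver genotype comparison, where edgeR called 15.2% of all genes (7.91% higher and 7.27% lower). Among nuclear receptors and regulators, 1 of 12 was called, and it was lower: Nr1i3, the CAR receptor that controls drug and bile acid handling, at 121 to 335 CPM in db/db livers and 393 to 1064 CPM in db/+ livers (log2 fold change -1.44, edgeR adjusted p = 0.0113). Of the carriers of other families, 3 of 10 were called. Slco1a1, an uptake carrier of organic anions, was lower (-6.23, edgeR adjusted p = 0.00451), as was Atp8b1, a canalicular lipid flippase (-0.43, adjusted p = 0.0413), and Slc51b, one part of the basolateral bile acid exporter, was higher (2.64, edgeR adjusted p = 0.0127). Slc51b read only 0.752 to 3.31 CPM in db/db livers and 0.114 to 0.636 CPM in db/+ livers. Slc51a, the other part, was not called, at 0.210 to 1.39 CPM in db/db livers and 0.391 to 1.24 CPM in db/+ livers. Of the cholesterol export partners, 1 of 11 tested was called, and it was higher: Npc2, which binds cholesterol in lysosomes (0.62, edgeR adjusted p = 0.0116). Tap1 and Tap2, the antigen peptide transporters that carry other symbols, and Kcnj8, a KATP channel pore, gave 0 calls by edgeR. In brain none of the tested genes of these lists was called by edgeR.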

How the data were processed

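RNA was sequenced in 12 liver libraries and 12 brain libraries, in 6 groups of 2 libraries per tissue. Per the labels' protocols, TRIzol RNA was selected for poly(A) and libraries were built with the NEBNext Ultra II kit. Whether the libraries marked strand was not checked, and if they did not, reads of overlapping or antisense genes cannot be separated. The submitters' processing notes name bcl2fastq and the build GRCm39, and the aligner, counter, annotation and brain region were not given in the sources used. The authors deposited expected counts per gene and library (whole numbers, not scaled), and a table of coverage signal and FPKM. The counts kept 1 ratio to the deposited coverage (CV over libraries under 1%) in 43.3% of 2801 genes with 1000 or more counts in every library compared, and were treated as estimates. In that table, 2 coverage columns of the db/+ brazzein livers were not used. Genotype came from the titles, since the genotype entry went against them for 12 samples. The headers of the 2 db/+ brazzein liver count files carry each other's replicate number, which changes no group.

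The estimated counts (unit as deposited, where plain counts had been assumed in the design) were rounded and fitted with edgeR 4.0.16 in R 4.3.3 (TMM, filterByExpr by group, quasi-likelihood tests), in 1 fit of 6 groups per tissue and 1 of all 12 groups for liver against brain. P-values were adjusted by Benjamini-Hochberg over all genes tested, with a threshold of 0.05, and SE is the log2 fold change divided by the square root of F. The fit was tested on simulated counts with known changes. These were not built to copy the near-0 values in single livers, so they are no check of the members with such values. For estimated counts no counting interval or floor was set, and a 0 is written as listed at 0. The deposited FPKM values were used for levels across genes and tissues and, as log2(FPKM + 0.1) with limma 3.58.1, as an alternative. Other alternatives were RLE factors, no filter, DESeq2 1.42.0, a replicate block and each library left out, and 3 more were added after seeing the data. Members, roles, marker lists and alternatives were chosen with earlier results of these data known. Results for some members are not reported here. Values in every library are given for members called in liver and a set panel. Promoters are RefSeq sequences of GRCm38.p6, and gene coordinates in the files' build were not used.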

Additional observations from a re-analysis of the deposited data

Results flagged for a closer look

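In 6 of 66 sets of 6 libraries tested, 1 library stood apart from the other 5, where chance gives about 5% of sets. The share of all genes that the same rule flags is not given, so the count is not read as particular to the members. Abcb1a was 6.0 CPM in db/+ brazzein liver replicate 2, against 0.0179 CPM or less in the other db/+ livers. The same library held the highest Abcc4, 4.80 CPM, with the next db/+ liver at 2.08 CPM, and the highest Abcg5, 107 CPM, with the next at 47.9 CPM. In db/db brazzein liver replicate 2, Abcb4 was 19.4 CPM, with the next db/db liver at 75.2 CPM, and Abcc3 was 1.30 CPM, with the next at 149 CPM. Abcf3 was 37.1 CPM in db/db sucrose liver replicate 2, with the next db/db liver at 43.1 CPM.

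For 7 members the genotype difference in liver was tested to differ from that in brain (edgeR quasi-likelihood, adjusted p under 0.05). The liver minus brain difference in log2 fold change was 6.35 for Abcb1a, 3.71 for Abca2, 3.53 for Abca3, 1.92 for Abcc4, 1.46 for Abca5, 0.79 for Abcb9 and -0.43 for Abcf3. Over single libraries left out, those of Abcc4, Abca5, Abca3, Abcf3 and Abcb9 stayed called in all 24 fits, that of Abca2 in 23 and that of Abcb1a in 13.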

How the results depend on the processing

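The count of members called in the liver genotype comparison was 6, and 10 by DESeq2, which called 21% of all genes to which it gave an adjusted p. Leaving out 1 library gave 2 to 7: 2 when db/db sucrose or water replicate 2 was left out, and 3 without db/+ sucrose replicate 1, db/db sucrose replicate 1 or db/db water replicate 1. On water, 1 was called, against 0 with no filter on low counts, 5 by DESeq2, 0 with the replicate block, 2 without the 2 liver brazzein libraries that held most low values, 2 with limma on log2 CPM, 4 with limma and low values of discordant pairs left out, and 0 to 1 with each library left out. On sucrose, 1 was called, against 5 by DESeq2, 0 with the replicate block, 2 without those 2 libraries, 2 with limma on log2 CPM, 6 with low values left out, and 0 to 1 with each library left out. On brazzein, 0 were called, against 3 by DESeq2, 1 with low values left out and 0 to 1 with each library left out. For brazzein against water, 0 were called, against 1 by DESeq2, 1 without the 2 libraries, 2 with low values left out and 0 to 1 leaving out each. For sucrose against water, 0 were called and 1 with low values left out. For brazzein against sucrose, 0 were called, against 2 by DESeq2, 1 without the 2 libraries, 3 with low values left out and 0 to 1 leaving out each. In db/db mice that comparison gave 0, against 2 by DESeq2, 2 with low values left out and 0 to 1 leaving out each. The interaction gave 0, against 3 with low values left out and 0 to 1 leaving out each. In brain, DESeq2 gave 2 for genotype, 1 for sucrose against water and 1 for brazzein against sucrose, against 0 in each by edgeR. The liver minus brain difference gave 7, and 12 by DESeq2. Leaving out the low value of a discordant pair takes away the spread within its group by the rule itself. Counts under that setting are therefore no independent check of the calls. Other than for DESeq2, the share of all genes called in each setting is not given. The counts therefore do not show whether the members moved more than other genes. The cause of the moves between settings was not tested.

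Among members not called, the log2 fold change between genotypes in liver turned for Abcc3 (0.018 with low values left out, -2.30 to 0.001 over libraries left out) and Abca8a (-0.42 with the replicate block, -0.63 on log2(FPKM + 0.1), -0.38 with limma on log2 CPM, -1.82 to 2.51 over libraries left out). Over libraries left out it also turned for Abcg5 (-0.18 to 0.56), Abcb4 (-0.81 to 0.021), Abcc2 (-0.14 to 0.41) and Abcd2 (-2.19 to 5.10). Replicate numbers showed no pairing: correlations of replicate differences between groups, over 15 pairs of groups, ran from -0.10 to 0.09 in liver and from -0.04 to 0.04 in brain, and the replicate block gave 5 calls in the liver genotype comparison, with Abca2 (adjusted p = 0.0863) and Abcb1a (0.0546) lost and Abcb9 (0.0287) gained. Over all settings other than leaving out a library, 195 values kept their direction and side of the threshold, 17 lost the call and 4 turned, and over libraries left out, 336 kept, 63 lost, 1 gained and 8 turned. Estimates near 0 in single livers limit the values of Abca2, Abca3, Abca8a, Abca8b, Abcb1a, Abcc3, Abcc5, Abcd2 and Abcf2.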
